A study of Mus musculus with 9 samples.

Results

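Chemokine ligands are small secreted or membrane-tethered proteins that draw leukocytes to a site of infection. The genes described here are the 10 chemokine ligands Ccl2, Ccl3, Ccl4, Ccl5, Ccl7, Ccl9, Cxcl1, Cxcl2, Cxcl10 and Cxcl16, chosen by symbol as inflammatory mRNAs known for AU-rich sequences, out of 25494 genes in the library table. All 10 were found under that symbol, all 10 were also listed in each of the 3 comparison tables, and all 10 had a mean of at least 10 reads, as did 13027 genes in total. Ribosomal RNA-depleted total RNA was sequenced from bone marrow-derived macrophages (BMDMs) of TTP-deficient mice, with 3 libraries in each of 3 groups, 9 in all. The groups carried a doxycycline-inducible vector for GFP alone (GFP), for GFP fused to tristetraprolin (TTP), or for GFP fused to TTP with its serines 52 and 178 replaced by alanine (TTP-AA; figure labels read AA). Every library, the GFP group included, came from cells treated with doxycycline for 6 h and lipopolysaccharide (LPS), the bacterial stimulus, for 1 h, each at 1 µg/ml, so that no level before doxycycline or before LPS was measured. All groups lacked the TTP gene product of the host, all were immortalized with the oncogenes hcmyc and hRasG12V, and all went through retroviral transduction and a sort for GFP, so that a difference between groups is also a difference between separately transduced lines. The labels do not say whether the 3 libraries of a group came from separate cultures.

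TTP, the product of Zfp36, binds AU-rich elements in the 3′UTR of inflammatory mRNAs and recruits enzymes that shorten the poly(A) tail. After LPS the kinase MK2 phosphorylates TTP on the mutated serines, which weakens its action, and TTP-AA cannot be switched off in that way. Macrophages induce chemokine mRNAs within the first hour of LPS through NF-κB and, for Cxcl10 and Ccl5, also through interferon-regulated factors. The CC ligands Ccl2, Ccl7 and Ccl12 draw monocytes through Ccr2, while Ccl3, Ccl5 and Ccl9 act on Ccr1, and Ccl4 draws monocytes and T cells. Among the CXC ligands, Cxcl1 and Cxcl2 draw neutrophils through Cxcr2, Cxcl10 draws T cells through Cxcr3, and Cxcl16 is made as a membrane protein that is shed by Adam10 and binds Cxcr6.

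The 3′UTRs differed widely in the motif by which TTP binds, and the stretches with the densest motifs are shown because the comparisons below set these motifs against the measured ratios. Each is 30 bases of the sense strand in DNA letters, 5′ to 3′, from the 3′UTR of the GENCODE M21 transcript on GRCm38, with each copy of the pentamer ATTTA in capitals. The first pair holds repeated, overlapping copies, the second pair a single copy within the heptamer TATTTAT, and the last trio single copies outside that heptamer.
Cxcl2, chr5:90905325-90905354, plus strand: cttATTTATTTAtctatgtATTTATTTAtt
Cxcl1, chr5:90892606-90892635, plus strand: gtcctATTTATTTAtgtATTTATTTAttcc
Ccl3, chr11:83648003-83648032, minus strand: tgtatttgtgactATTTAttctgaaagact
Ccl4, chr11:83664541-83664570, plus strand: tattatttctattATTTAtgttttagttat
Ccl7, chr11:82047254-82047283, plus strand: tattaatatttttATTTAattagccatgta
Cxcl10, chr5:92346937-92346966, minus strand: tgtaagactacaaATTTAagtttgtaagga
Cxcl16, chr11:70455103-70455132, minus strand: tagctaagatgttATTTAgtccaagccagc

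Over the whole 3′UTR, with overlapping copies counted on the sense strand, Cxcl2 held 11 copies of ATTTA, 7 of TATTTAT and 4 of the nonamer TTATTTATT, the sequence TTP binds best. Cxcl1 held 7, 6 and 2 copies of the same motifs, Ccl3 held 5, 1 and 0, and Ccl4 held 2, 1 and 0. The remaining ligands had no heptamer and no nonamer. Among them Ccl9 held 5 copies of the pentamer, in a 3′UTR of 2465 bases that was by far longer than the others (199 to 1421 bases). Ccl7, Cxcl10 and Cxcl16 held 2 pentamers each, Ccl2 held 1 and Ccl5 held 0. The heptamer contains the pentamer and the nonamer contains both, so these counts overlap. As background, 66.1% of 11323 genes with an annotated 3′UTR held the pentamer, 27.4% the heptamer and 7.13% the nonamer, and 16 genes held at least as many heptamers as Cxcl2.

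The library values turned out to be the means of the authors' fitted model and not measured values. A singular value decomposition of the centred log2 table found 4 components, against up to 8 for independently measured libraries, and each value was a library factor times a group term times a replicate-number term. Within 1 replicate number the ratio of 2 groups is therefore the same by construction, no scatter between replicates remains, and no test between groups could be made. The errors given below are the counting error that the fitted values would have if they were reads, which leaves out the variation between cultures. A change of 1.5-fold or more, that is 0.58 on the log2 scale, is used as a rule of size without a p-value. The fitted ratios were also drawn toward 0 in genes with few reads. Over 3665 genes with a mean from 1 to under 5 reads, the SD of the log2 ratio of TTP-AA to TTP across genes was 0.12, where counting alone would give 0.85. A low ligand such as Cxcl1 could therefore differ by more than its ratio shows.

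Fitted totals ranged from 21482954 to 102613526 reads per library, and the deepest library was replicate 3 of the TTP-AA group. Zfp36 is the gene that was targeted in the host mice and that the TTP and TTP-AA transgenes supply. It was at 1744, 1423 and 890 scaled reads in the GFP libraries, 1787, 1447 and 913 in the TTP libraries and 2828, 2298 and 1443 in the TTP-AA libraries. Its log2 ratio was 0.03 ± 0.035 (counting error, n = 3 per group) for TTP to GFP, and 0.69 ± 0.030 for TTP-AA to GFP. For TTP-AA to TTP it was 0.66 ± 0.030, which is past 1.5-fold. The libraries labelled TTP thus held no more Zfp36 reads than those labelled GFP. Reads were counted over the whole gene, transcript of the targeted allele and of the transgene cannot be told apart in such a count, and the group names below are the labels' names, which these counts do not check. Of 9 macrophage markers listed, all 9 were above a mean of 10, from 18.5 for Mertk to 586287 for Lyz2. Of the markers found in the table, the B cell, NK cell and fibroblast or epithelial markers all stayed below a mean of 4 reads, while Lck, of the T cell list, was at 79.0, S100a8, of the neutrophil list, at 174 and Flt3, of the dendritic cell list, at 235.

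The 10 ligands together took 0.341% to 0.588% of all fitted reads of a library, and a few of them ranked among the most abundant mRNAs of these cells. Expressed as RPKM, that is fitted reads relative to transcript length and library total, and averaged over the 9 libraries, Ccl2 led with a level of 1087, ahead of Ccl4 at 987 and Cxcl2 at 855. These levels placed them 50th, 63rd and 77th of 12958 genes with a length, so that mRNAs for ligands of monocytes and of neutrophils stood side by side at the top. Ccl3 at a level of 367, Ccl9 at 358 and Cxcl10 at 258 followed, and Ccl7 stood at 161. The remaining trio was low, with a level of 8.15 for Ccl5, 7.31 for Cxcl16 and 1.05 for Cxcl1. Cxcl1 and Cxcl2, which share the receptor Cxcr2 and lie 12.6 kb apart on chromosome 5, were thus far apart in abundance. Neighbours in this order were not all separated, since the range over libraries was 814 to 1503 for Ccl2, 534 to 1907 for Ccl4 and 700 to 1040 for Cxcl2, and 274 to 520 for Ccl3 and 294 to 407 for Ccl9. The levels of Ccl5 (5.65 to 13) and Cxcl16 (2.02 to 16.1) also overlapped.

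**Figure D1:**
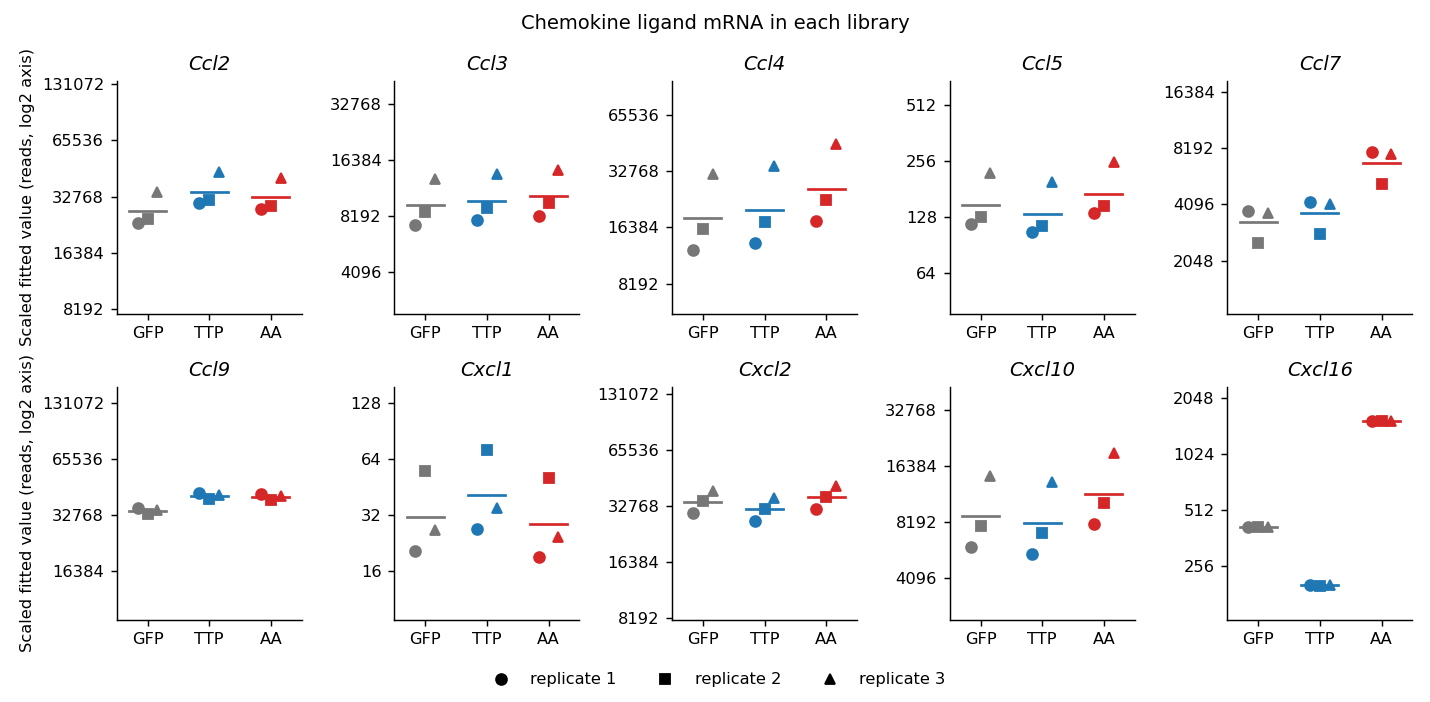
Scaled fitted value of each chemokine ligand in each library (reads after median-of-ratios scaling, log2 axis spanning the same fold range in every panel), with groups on the horizontal axis, symbols for replicate numbers and a line at the geometric mean. Cxcl16 is separated in all 3 groups with hardly any distance between replicates, Ccl7 is higher in the 3 TTP-AA (AA) libraries, and Ccl4, Cxcl10 and Cxcl1 vary more with the replicate number than with the group.

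Cxcl16 was the ligand with the widest separation between the transgenes, lower with TTP and higher with TTP-AA than with GFP alone. The gene lies on the minus strand of chromosome 11, 70453983 to 70459984 (GRCm38, protein coding). Its scaled values were 415, 416 and 415 reads in the GFP libraries. In the TTP libraries they were 203, 202 and 204, and in the TTP-AA libraries 1533, 1531 and 1534. No group overlapped another, although the closeness of the 3 values within a group comes from the fit and is not a measure of reproducibility. Cxcl16 was 2.04-fold lower with TTP than with GFP (log2 ratio -1.03 ± 0.077, counting error, n = 3 per group), and only 123 of 13027 genes had a lower ratio. It was 3.69-fold higher with TTP-AA than with GFP (log2 ratio 1.88 ± 0.047), 26th from the top of all genes. Between TTP-AA and TTP the log2 ratio was 2.91 ± 0.067, a 7.51-fold difference that ranked 15th.

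The annotation and the fit each touch this value. An exon of Cxcl16 overlaps an exon of Zmynd15 on the opposite strand, and 19.0% of the 50-base words of the Cxcl16 transcript also occur in transcripts of Zmynd15, either strand considered. Whether the counting used strand was not stated. Zmynd15, named after its values were seen, had a mean of 14.5 scaled reads against 717 for Cxcl16, with log2 ratios of -0.23 for TTP to GFP and 0.77 for TTP-AA to GFP. In addition, the fitted mean of Cxcl16 lay 12.7% below the mean normalized count that the authors list for it (821), a gap exceeded by 1.35% of genes, where the median gap of all genes was 0.416% in the other direction. Its replicate-number term was 0.00 on the log2 scale, the smallest of all 13027 genes. Which library holds the difference between the measured and the fitted mean was not tested, since measured values per library were not analysed here.

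Ccl7, a monocyte chemoattractant, was the other ligand past 1.5-fold, in both comparisons with TTP-AA. The gene lies on chromosome 11, 82045712 to 82047525, plus strand, 10.1 kb from the start of Ccl2. Its scaled values were 3779, 2560 and 3686 reads in the GFP libraries and 4217, 2836 and 4120 in the TTP libraries, which overlapped. In the TTP-AA libraries they were 7815, 5274 and 7620, above every library of the other groups. As for Cxcl16, these are fitted values, so the separation is not a measure of reproducibility. The log2 ratio was 1.05 ± 0.018 for TTP-AA to GFP, a 2.06-fold difference that ranked 120th, and 0.89 ± 0.018 for TTP-AA to TTP, a 1.85-fold difference. For TTP to GFP it was 0.16 ± 0.021. The fitted mean of Ccl7 lay within 1% of the authors' mean (-0.774%), and none of its 50-base words occurs in another gene.

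In the comparison of TTP with GFP, which asks what restoring TTP changes in cells that lack it, the ligands as a group moved little. Of the 10 ligands, 1 was past 1.5-fold, Cxcl16, which was lower, while 3.81% of all genes were past 1.5-fold, 1.01% higher and 2.80% lower. The median log2 ratio of the ligands was 0.11 beside 0.00 for all genes, with 6 above and 4 below 0. The neutrophil ligand Cxcl1, with the second-highest motif count, had the highest ratio of the 10, 0.38 ± 0.22, but with a mean of 36.8 reads its 95% counting interval ran from -0.05 to 0.81. Ccl2, the Ccr2 ligand, followed with 0.34 ± 0.0072 and Ccl9 with 0.27 ± 0.0064, ahead of 96.2% and 93.2% of genes. Cxcl2, which carries the most AU-rich motifs, had a log2 ratio of -0.13 ± 0.0070. Cxcl10 was at -0.12 ± 0.014 and Ccl5 at -0.17 ± 0.11, and with Cxcl2 and Cxcl16 they make up the 4 ligands below 0. The 95% counting interval of Ccl5 ran from -0.38 to 0.05 and so included 0. In this bulk RNA, fewer cells with an mRNA and less of it per cell cannot be told apart.

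In the comparison of TTP-AA with GFP, 9 of the 10 ligands were above 0 and 2 were past 1.5-fold, Cxcl16 and Ccl7, both higher. Among all genes 6.03% were past 1.5-fold, 4.08% higher and 1.95% lower. The median log2 ratio of the ligands was 0.25 beside 0.00 over all genes, 50.2% of which lay above 0. Ccl4, which draws monocytes and T cells, came closest to the threshold from below with 0.52 ± 0.0086, and passed it at 0.62 when each gene was centred on the median of its chromosome, and Cxcl10 had 0.40 ± 0.013. Ccl3, although it lies 13.2 kb from Ccl4, was at 0.15 ± 0.012, and Cxcl2 was at 0.08 ± 0.0064. The ligand below 0 was Cxcl1, at -0.11 ± 0.22, with a 95% counting interval from -0.54 to 0.31.

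TTP-AA and TTP were compared to ask what the phosphorylation sites change. The Zfp36 level also differed between these lines (log2 ratio 0.66 ± 0.030 for TTP-AA to TTP), and its part in the ligand ratios was not tested. Since all groups come from a single fit, the ratio of TTP-AA to TTP is the difference of the other 2 and not a separate measurement. Again 2 of 10 ligands were past 1.5-fold, Cxcl16 and Ccl7, both higher with TTP-AA, beside 9.56% of all genes, 6.63% higher and 2.93% lower. The median log2 ratio was 0.29 for the ligands and 0.00 for all genes, with 7 ligands above 0. Cxcl10 stood at 0.53 ± 0.014, below the threshold and ahead of 92.2% of genes, Ccl4 at 0.38 ± 0.0088 and Ccl5 at 0.36 ± 0.11. Ccl2 at -0.10 ± 0.0069 and Ccl9 at -0.02 ± 0.0060, both abundant, were close to 0. Cxcl1 was the lowest, at -0.49 ± 0.22, with 4.80% of genes below it. The 6 CC ligands had a median of 0.22, from -0.10 to 0.89, and the 4 CXC ligands a median of 0.37, from -0.49 to 2.91, so that both classes spanned 0.

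**Figure D2:**
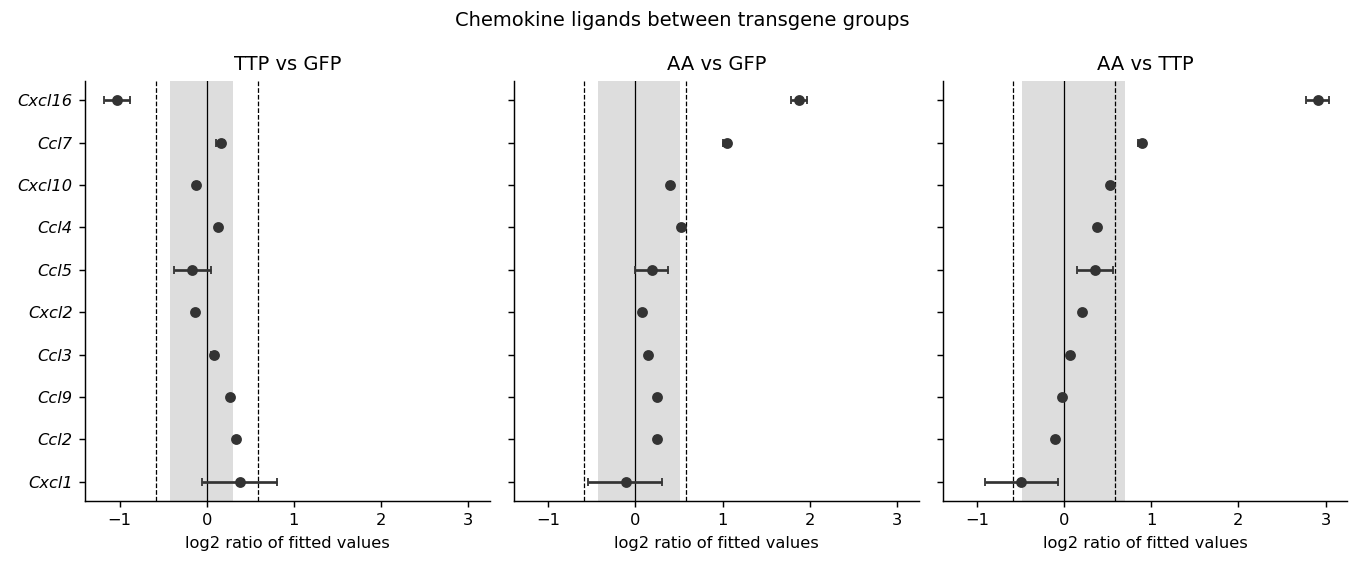
Log2 ratio of fitted values of each chemokine ligand in the 3 comparisons (AA stands for TTP-AA); bars are 95% counting intervals, the grey band runs from the 5th to the 95th percentile of 13027 genes, and dashed lines mark 1.5-fold. In each comparison 7 of the 10 ligands lie within the grey band; Cxcl16 lies below it for TTP to GFP and above it in both comparisons with TTP-AA.

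In the comparisons with TTP-AA, the ligands richest in AU-rich motifs were not those with the largest ratios. For TTP-AA to TTP, the 4 ligands with a heptamer (Cxcl1, Cxcl2, Ccl3 and Ccl4) had log2 ratios from -0.49 to 0.38, with a median of 0.14. The 6 ligands without it ranged from -0.10 to 2.91, with a median of 0.44. Cxcl16 and Ccl7, the ligands that passed the threshold, held 2 pentamers each, as did Cxcl10, and the pair with the nonamer, Cxcl1 and Cxcl2, lay on opposite sides of 0 in this comparison. For TTP-AA to GFP the pair with the nonamer, at -0.11 and 0.08, lay below the other 8 ligands, of which the lowest was at 0.15 and the median at 0.33. The median with a heptamer was 0.12 in that comparison and without it 0.33. For TTP to GFP the ligands with a heptamer had a median log2 ratio of 0.11 and those without of 0.02, the opposite order. Over all genes the medians with and without the heptamer were -0.04 and 0.01 for TTP to GFP, -0.07 and 0.02 for TTP-AA to GFP, and -0.04 and 0.00 for TTP-AA to TTP. No test was made of these differences. The motif count is a property of the annotated transcript and says nothing of binding in these cells.

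**Figure D3:**
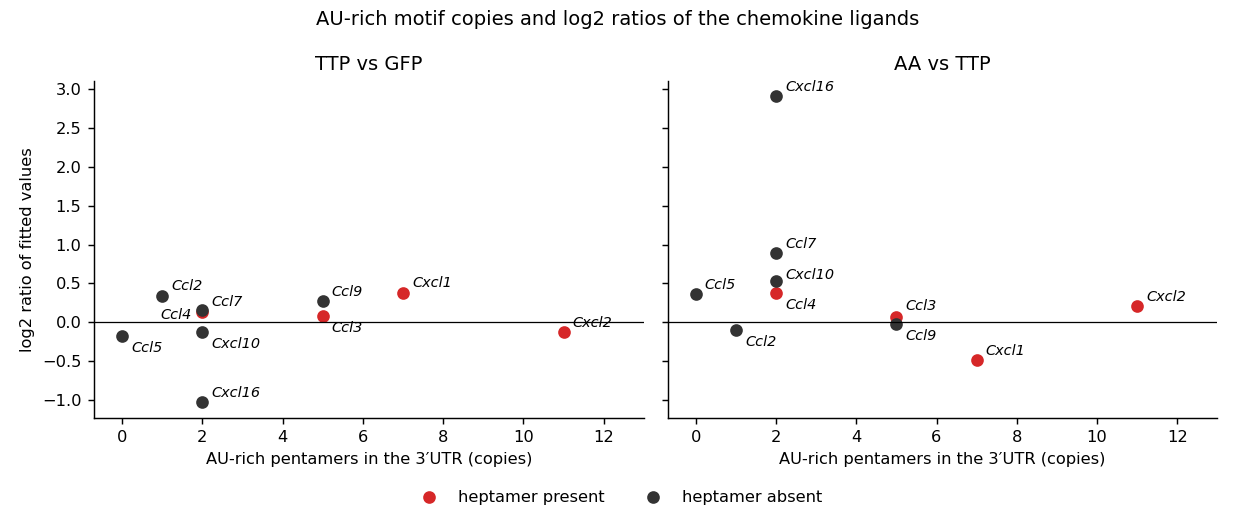
Log2 ratio of fitted values of each chemokine ligand against the copies of the AU-rich pentamer in its 3′UTR, for TTP to GFP (left) and TTP-AA to TTP (right, labelled AA vs TTP), with red points for ligands that also hold the heptamer. Cxcl2 with 11 copies lies near 0 in both panels, and Cxcl16 with 2 copies lies farthest from 0.

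Most of the chemokine mRNAs, like most genes, varied more between replicate numbers than between transgenes. In the authors' model this term stands for the library date, and each date held 1 library of each group, so it does not coincide with a group. The distance from the lowest to the highest replicate term had a median of 0.69 on the log2 scale for the ligands and of 0.32 for all genes. It exceeded the distance between the group terms for 7 of the 10 ligands, and for 60.2% of all genes. Ccl4 was 2.58-fold, Cxcl10 2.41-fold and Ccl5 1.85-fold higher in replicate 3 than in replicate 1 of every group, and 6 of the 10 ligands (Ccl2, Ccl3, Ccl4, Ccl5, Cxcl2 and Cxcl10) were highest in replicate 3, beside 30.7% of all genes. Cxcl16, with replicate terms of 0.00, was not counted.

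Ccl4 shows what this does to the levels. Its scaled values were 12361, 16073 and 31833 reads in the GFP libraries, 13591, 17546 and 35051 with TTP and 17726, 22960 and 45631 with TTP-AA, so that replicate 3 of the GFP group lay above replicates 1 and 2 of TTP-AA. Cxcl10 followed the same order, with 6031, 7849 and 14531 reads in GFP, 5550, 7170 and 13390 with TTP and 7983, 10349 and 19227 with TTP-AA. Cxcl1 instead peaked in replicate 2, with 20.6, 55.2 and 26.7 reads in GFP, 27.0, 72.0 and 35.1 with TTP and 19.0, 50.8 and 24.6 with TTP-AA. All groups of these genes overlapped across replicate numbers, although within each replicate number the order of the groups was the same by construction. Ccl9, at 35603, 33100 and 34638 reads in GFP and 43021, 39710 and 41915 with TTP, was the steadiest of the abundant ligands, with a replicate range of 0.11, and its GFP libraries lay below all others although the difference was under 1.5-fold. Its TTP-AA libraries were at 42453, 39315 and 41286.

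Ccl2, Ccl3, Cxcl2 and Ccl5 were likewise highest in replicate 3 of every group. Ccl2 was at 23797, 24807 and 34881 scaled reads in GFP, 30211, 31267 and 44346 with TTP, and 28251, 29335 and 41393 with TTP-AA. Ccl3 was at 7361, 8632 and 12961 reads in GFP, 7796, 9076 and 13747 with TTP, and 8207, 9587 and 14445 with TTP-AA. For both, the step to replicate 3 was larger than any difference between transgenes. Cxcl2 was at 29857, 34907 and 39540 reads in GFP, 27257, 31639 and 36148 with TTP, and 31599, 36800 and 41830 with TTP-AA. Ccl5, the least abundant CC ligand here, was at 118, 128 and 219 reads in GFP, 106, 114 and 196 with TTP, and 135, 146 and 251 with TTP-AA, and its groups overlapped too.

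**Figure D4:**
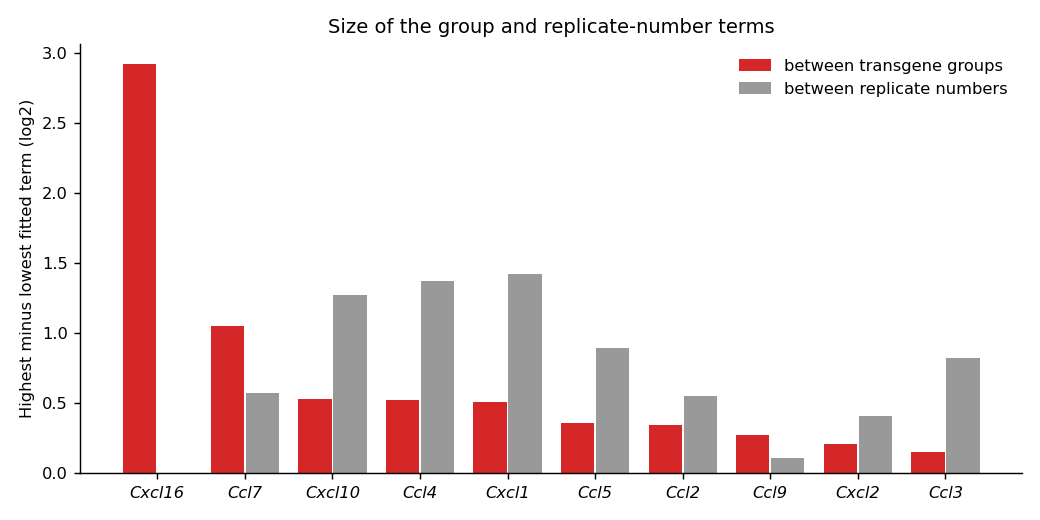
Distance between the highest and the lowest fitted term, in log2 units, between transgene groups (red bars) and between replicate numbers (grey bars) for each chemokine ligand, in order of the group term. The grey bar is the taller for 7 of the 10 ligands, where the same holds for 60.2% of all genes, and that of Cxcl16 is 0.00.

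The fitted means of some ligands fell short of the measured ones. For Ccl5 the fitted mean was 17% below the authors' mean normalized count of 189, for Cxcl10 16% below that of 12187, and for Cxcl1 12.3% below that of 41.9. A larger shortfall was found in 0.714%, 0.875% and 1.42% of genes. With Cxcl16 these 4 lay beyond the 5th percentile of all genes (-4.88%), while the other 6 ligands were between -1.55% and 0.468%. The ratios of Ccl5, Cxcl1, Cxcl10 and Cxcl16 thus rest on a model that missed part of their measured level, and the share of each group in that part was not tested.

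The chromosomal neighbours of Cxcl16 and Ccl7 were described for the same comparisons. Within 250 kb of Cxcl16, 2 of 21 genes with a mean of at least 10 were past 1.5-fold for TTP-AA to TTP: Zmynd15, the overlapping gene, at 1.00, and Eno3, named after its values were seen, at -0.59. That is a share close to the 9.56% of all genes. Zmynd15 lay on the same side of 0 as Cxcl16 in all 3 comparisons, and at 0.77 for TTP-AA to GFP it was past 1.5-fold there too. For TTP-AA to TTP, Ccl2, next to Ccl7, was at -0.10, and Ccl12, a further Ccr2 ligand 56.1 kb away, at 0.52. Ccl6, 14.5 kb from Ccl9, had log2 ratios of 0.07 for TTP to GFP and 0.43 for TTP-AA to TTP. In the interferon-responsive pair on chromosome 5, Cxcl11 at a mean of 28.6 reads had -0.30 ± 0.27 and 0.61 ± 0.25, beside Cxcl10 with -0.12 and 0.53. With such counting errors the likeness of the pair is not settled. Cxcl10 has exons that overlap Art3 on the opposite strand, with 8.04% of its 50-base words shared, and Cxcl2 shares 5.75% with Cxcl3.

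**Figure D5:**
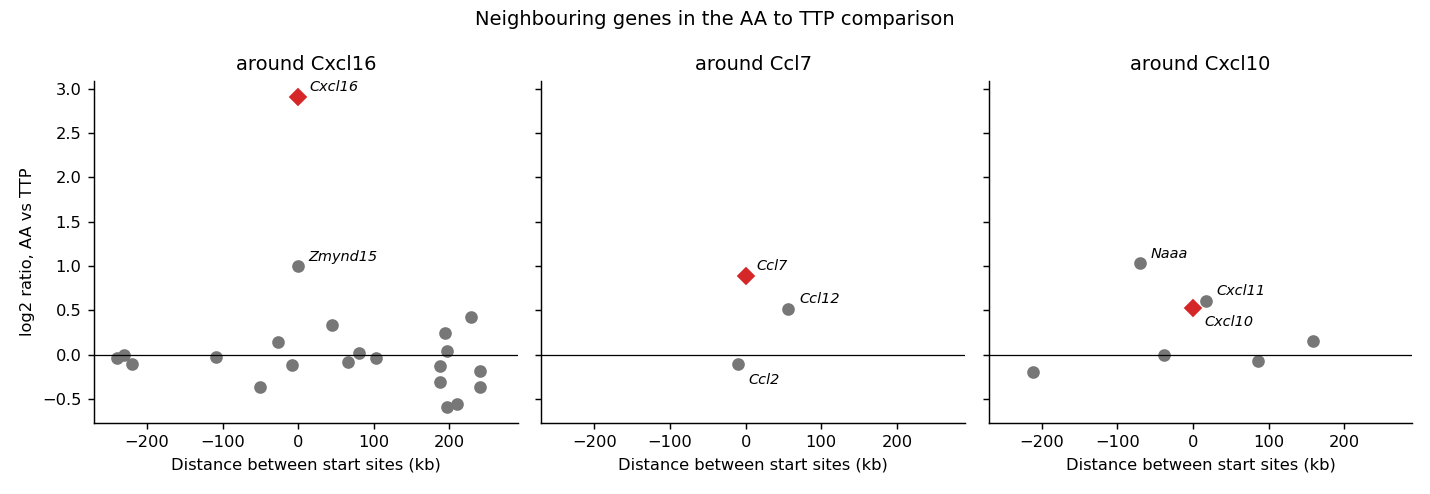
Log2 ratio of fitted values for TTP-AA to TTP (AA vs TTP) of Cxcl16, Ccl7 and Cxcl10 (red diamonds) and of the genes within 250 kb (grey points), against the distance between start sites in kb. Around Cxcl16 the genes other than Zmynd15 lie from -0.59 to 0.43, and next to Ccl7 the gene Ccl2 lies at -0.10.

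Other chemokine ligands, receptors and regulators were counted on the same rule. Among all genes, 6.63% were past 1.5-fold higher and 2.93% lower for TTP-AA to TTP. For TTP to GFP these shares were 1.01% and 2.80%. Of 8 further ligands with a mean of at least 10, 5 were past 1.5-fold higher and 0 lower for TTP-AA to TTP, with a median log2 ratio of 0.72, and for TTP to GFP 1 was lower. Pf4, a platelet factor that macrophages also make, was that gene, with -0.89 ± 0.052 for TTP to GFP and 0.84 ± 0.051 for TTP-AA to TTP. Cxcl14 and Ccl20, at means of 50.5 and 52.9 reads, had log2 ratios of 1.89 and 1.53 for TTP-AA to TTP, and of -0.22 and -0.09 for TTP to GFP. Cx3cl1, at a mean of 35.2 and named with Cxcl11 after the values were seen, was at 0.96 and completes the 5 with Cxcl11. Among 8 chemokine receptors with a mean of at least 10, the atypical receptor Ccrl2 alone was past 1.5-fold, at -0.75 for TTP to GFP and 1.05 for TTP-AA to TTP. Cxcr6, the receptor of Cxcl16, was at 0.653 reads.

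The proteases that shed Cxcl16 or trim chemokines were not past the threshold in any comparison, 0 of 5 genes, beside 3.81% to 9.56% of all genes. Adam10 was at -0.12 and Adam17 at 0.47 for TTP-AA to TTP. Of 12 NF-κB, IRF and STAT factors, 2 were lower for TTP to GFP, beside 2.80% of all genes. These were Irf7, which drives the later interferon response, at -1.15 and Stat2 at -0.61. For TTP-AA to TTP 2 were higher, Irf7 at 1.72 and Irf5 at 0.60, beside 6.63% of all genes, and no NF-κB subunit was past 1.5-fold. The median of the 12 factors for TTP-AA to TTP was 0.29, the same as that of the 10 ligands. It was 0.34 for the 5 proteases, 0.25 for the macrophage markers, 0.09 for the chemokine receptors and -0.17 for the dendritic cell list. A median close to that of the ligands was thus not particular to these factors. Of the macrophage markers, Emr1, which encodes the F4/80 antigen used to select the cells, was at -0.76 for TTP to GFP and 0.68 for TTP-AA to GFP, and Fcgr1 at -1.21 and -0.39. The sum of the 9 macrophage markers was 484908 to 661741 scaled reads with TTP, 580999 to 802456 with GFP and 664834 to 912599 with TTP-AA. Lyz2 alone, at a mean of 586287, made up most of this sum. Over the 9 markers the median log2 ratio was -0.07 for TTP to GFP and 0.18 for TTP-AA to GFP. Emr1 thus moved in the same direction as Cxcl16 between the lines. S100a8 was higher by 0.76 (log2) with TTP-AA than with GFP, while Camp, also of the neutrophil list, was at 0.17 with a mean of 13.9. Lck was at 0.64 (log2) for TTP to GFP and 0.52 for TTP-AA to GFP. Cd2, the other T cell marker found, went the other way, at -0.32 and -0.08 with a mean of 8.19. Camp and Cd2 were named after their values were seen. The dendritic cell list summed to 229 to 278 with TTP-AA and 288 to 344 with GFP. The part of these markers in the values of the chemokine ligands was not tested.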

How the data were processed

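The authors prepared 50-base single-end libraries, trimmed them with Trim Galore, mapped them to GRCm38 with TopHat keeping multiply placed reads within a limit (2.0.12 in the submitters' processing notes), counted reads per Ensembl gene with HTSeq, and fitted DESeq2 (1.6.3) with library date and condition as terms and the Cook's filter off; shrinkage and strand use are not given in the sources used here. The deposited signal table, named as normalized counts, holds the fitted mean of each gene in each library in reads. The deposited comparison tables hold a mean signal over the libraries, which was used, and the authors' own fold changes, errors, statistics and p-values, which were not used.

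From these values, 10 repeated gene identifiers were dropped, libraries were scaled by the median of ratios (genes averaging 10 or more), and the log2 ratio was the difference of the group means of log2(value + 1). It is a fold change on that scale, which understates low genes. A limma fit planned for measured values was not made, since fitted means carry no scatter. Counting errors treat fitted values as reads and cover counting error only. The steps were tested on simulated fitted values without scatter. Such values cannot check the pull of low genes toward 0, the gap to measured means or the counting errors. Transcripts, 3′UTRs and motifs came from GENCODE M21 (GRCm38). Samples were grouped by their titles. Genes named were the 10 ligands, Zfp36, chemokine ligands that neighbour them, and from each further list the genes with a mean of at least 50 past 1.5-fold, at most the 2 highest and 2 lowest in a comparison; others are marked in the text. A single chemokine receptor of the list is not reported here. The ligands and lists were chosen with earlier results of these data known. Python 3.11.15, numpy 2.4.6 and pandas 2.3.3 were used. Alternatives were other scalings, pseudocounts of 0 and 10, chromosome centring, a 2-fold threshold, other filters and leaving out each replicate number.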

Additional observations from a re-analysis of the deposited data

How the results depend on the processing

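At a 2-fold threshold, 1 ligand in place of 2 was past it for TTP-AA to TTP, since Ccl7 fell short, and the counts over all genes became 169, 181 and 406 for TTP to GFP, TTP-AA to GFP and TTP-AA to TTP, from 496, 786 and 1246. Under the other scalings, pseudocounts and chromosome centring, and without each replicate number, the counts of ligands past 1.5-fold stayed at 1, 2 and 2, except that chromosome centring gave 3 for TTP-AA to GFP, where Ccl4 moved from 0.52 to 0.62. Of 240 alternative values of single ligands, 221 moved by less than the SD between replicate numbers and 19 by more, all of these for Cxcl16 or Ccl9. That SD, from 0.00 for Cxcl16 to 0.73 for Cxcl1, is not an error of a group ratio, so these counts do not measure stability. No ligand past 1.5-fold changed sign. For TTP-AA to TTP, however, Ccl2 moved from -0.10 to 0.03 with chromosome centring and Ccl9 from -0.02 to 0.01 with upper-quartile scaling. The number of ligands above 0 thus depends on the scaling. For Cxcl16, whose SD was 0.00, the values ran from 2.86 to 3.04 for TTP-AA to TTP, and Ccl9 moved from -0.02 to 0.11 with chromosome centring, because the median of chromosome 11 was -0.13. Leaving out a replicate number changed no ligand by more than 0.0038, which follows from the fitted values and says nothing of stability. No paired analysis was possible because the library values are fitted means without scatter. Depth limited Cxcl1 and Ccl5 most, as their counting errors show.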
